A study of Mus musculus with 20 samples.

Results

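The 8 genes that encode the receptors for estrogen, progesterone, glucocorticoid and mineralocorticoid hormones were followed by symbol among the 45777 genes listed in mouse uterus. They comprise the estrogen receptors Esr1 and Esr2, the progesterone receptor Pgr, the glucocorticoid receptor Nr3c1, the mineralocorticoid receptor Nr3c2, the membrane estrogen receptor Gper1 and the membrane-associated progesterone receptor components Pgrmc1 and Pgrmc2. The study asked how peripheral blood mononuclear cells (PBMCs) placed in the uterus alter its transcripts on the evening before attachment, in mice whose implantation is made to fail (IF). Wild-type B6D2F1 females of 8 to 12 weeks were mated, and all uteri were taken at 18:00 on day 3.5, counted from day 0.5 on the plug morning. Polyadenylated RNA of 1 horn per mouse was sequenced in 4 groups of 5 mice. Control mice received neither RU486 nor an intrauterine injection. IF mice received RU486 (mifepristone, a drug that blocks the progesterone and glucocorticoid receptors) under the skin, 3 mg/kg, at 9:00 on day 3.5. PBMC mice also received, on day 1.5, 50000 PBMCs of non-pregnant mice per horn after 24 h in culture, and PBMC-hCG mice received cells cultured with 5 IU/mL human chorionic gonadotropin (hCG). Mice given hCG medium without cells were not analysed here, so an effect of the injection itself cannot be told apart from that of the cells.

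Steroid receptors are transcription factors that act once their ligand is bound, whereas GPER1 is a G protein-coupled receptor at cell membranes and the PGRMC proteins are heme-binding membrane proteins linked to non-classical progesterone responses. In the uterus before implantation, estrogen acting through ESR1 drives epithelial growth and regulates Pgr transcription. Progesterone acting through PGR restrains estrogen action and prepares the stroma for decidualization. The glucocorticoid and mineralocorticoid receptors recognise the same DNA element as PGR, and glucocorticoid receptor activity restrains inflammatory genes.

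Promoter sequences are shown for 4 receptors whose transcripts rose in at least 1 comparison: Esr1 and Pgr, which rose together in all RU486-treated groups, and Nr3c2 and Pgrmc1, which rose in the PBMC-hCG group. Each runs from 250 bases before to 50 after a RefSeq transcript start in GRCm38.p6, on the plus strand, at chr10:4611739-4612038 (Esr1), chr9:8899583-8899882 (Pgr), chr8:76902080-76902379 (Nr3c2) and chrX:36597943-36598242 (Pgrmc1). Capitals mark the estrogen response element half-site TGACC, the half-site TGTTCT shared by glucocorticoid and progesterone receptors, the GC box GGGCGG and the TATA box TATAAA, each on either strand.
Esr1: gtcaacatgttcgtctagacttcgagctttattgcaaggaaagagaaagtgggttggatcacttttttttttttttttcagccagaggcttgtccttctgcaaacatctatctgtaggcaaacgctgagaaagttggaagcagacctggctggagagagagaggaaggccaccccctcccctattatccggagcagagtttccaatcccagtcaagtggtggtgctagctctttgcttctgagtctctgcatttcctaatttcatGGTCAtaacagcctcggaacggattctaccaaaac
Pgr: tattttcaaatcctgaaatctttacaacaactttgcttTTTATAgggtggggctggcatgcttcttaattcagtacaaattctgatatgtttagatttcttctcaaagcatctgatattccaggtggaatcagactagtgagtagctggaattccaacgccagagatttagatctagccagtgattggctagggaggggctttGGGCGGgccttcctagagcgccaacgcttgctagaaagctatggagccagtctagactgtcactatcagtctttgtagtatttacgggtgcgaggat
Nr3c2: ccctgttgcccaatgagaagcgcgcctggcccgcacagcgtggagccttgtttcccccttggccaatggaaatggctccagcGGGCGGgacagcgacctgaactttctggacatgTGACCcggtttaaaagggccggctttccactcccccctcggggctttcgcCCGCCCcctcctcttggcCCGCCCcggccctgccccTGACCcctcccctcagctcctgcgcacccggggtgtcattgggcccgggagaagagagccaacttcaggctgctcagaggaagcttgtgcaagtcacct
Pgrmc1: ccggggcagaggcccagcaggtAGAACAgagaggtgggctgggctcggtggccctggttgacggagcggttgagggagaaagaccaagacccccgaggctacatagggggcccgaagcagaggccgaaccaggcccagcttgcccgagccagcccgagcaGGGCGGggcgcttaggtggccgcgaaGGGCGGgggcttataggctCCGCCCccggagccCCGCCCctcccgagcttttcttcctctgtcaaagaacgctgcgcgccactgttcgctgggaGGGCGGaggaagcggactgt

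Windows were read for 7 of the 8 genes, with 2 for Esr1. None of these 8 windows held the palindromic estrogen response element (GGTCA and TGACC with 3 bases between), present in 0.0700% of 32851 RefSeq promoter windows of this length, or the palindromic glucocorticoid and progesterone element (GNACA and TGTNC with 3 bases between), present in 0.475%. The Esr1 window above held 1 estrogen half-site, 15 to 19 bases after the start on the minus strand, and the second Esr1 window held none of the motifs. In Nr3c2, estrogen half-sites stood at -135 and -49 from the start, beside 3 GC boxes. Pgrmc1 held 5 GC boxes and a glucocorticoid half-site at -228, and Pgr held 1 GC box at -47 and a reverse TATA box at -212, with no half-site of either kind. Such letters are common: 40.5% of all windows held the estrogen half-site, 19.0% the glucocorticoid half-site, 35.7% the GC box and 13.6% the TATA box. A match describes letters only, and no binding was measured.

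The values deposited are TPM, transcript shares scaled to a common total and per transcript length, so levels can be set against each other within a library. Totals lay between 999989 and 999999 TPM, so the depth is unknown and no counting interval is given. Between 22702 and 24097 genes were above 0 TPM per library, and log2 values of mice in the same group correlated at 0.961 to 0.992. Markers of epithelium, glands, stroma, myometrium and endothelium were above 0 in all 20 libraries. A pair of libraries stood apart in 4 adipose markers: their summed level was 582 TPM in control replicate 2 and 134 TPM in IF replicate 5, against 2.78 to 48.1 TPM elsewhere. Control replicate 2 also had the lowest stromal sum, 5227 TPM, and the highest glandular sum, 19189 TPM.

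The receptors were present at very different levels. In the control group, the order by mean TPM was Pgrmc1, Esr1, Pgrmc2, Pgr, Nr3c1, Nr3c2, Gper1 and Esr2. The ranges of Pgrmc2 and Pgr overlapped there, as did those of Nr3c2 and Gper1. In each RU486-treated group, Pgr stood above Pgrmc2 in 5 of 5 mice and their ranges did not overlap, whereas Pgrmc2 stood above Pgr in 5 of 5 control mice. In the IF group Pgr reached the level of Esr1, which exceeded it in 2 of 5 mice. In the PBMC group Esr1 exceeded Pgr in 4 of 5 mice, and in the PBMC-hCG group in 5 of 5, where no neighbouring ranges overlapped. The plot of receptor levels by mouse shows each value.

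**Figure D1:**
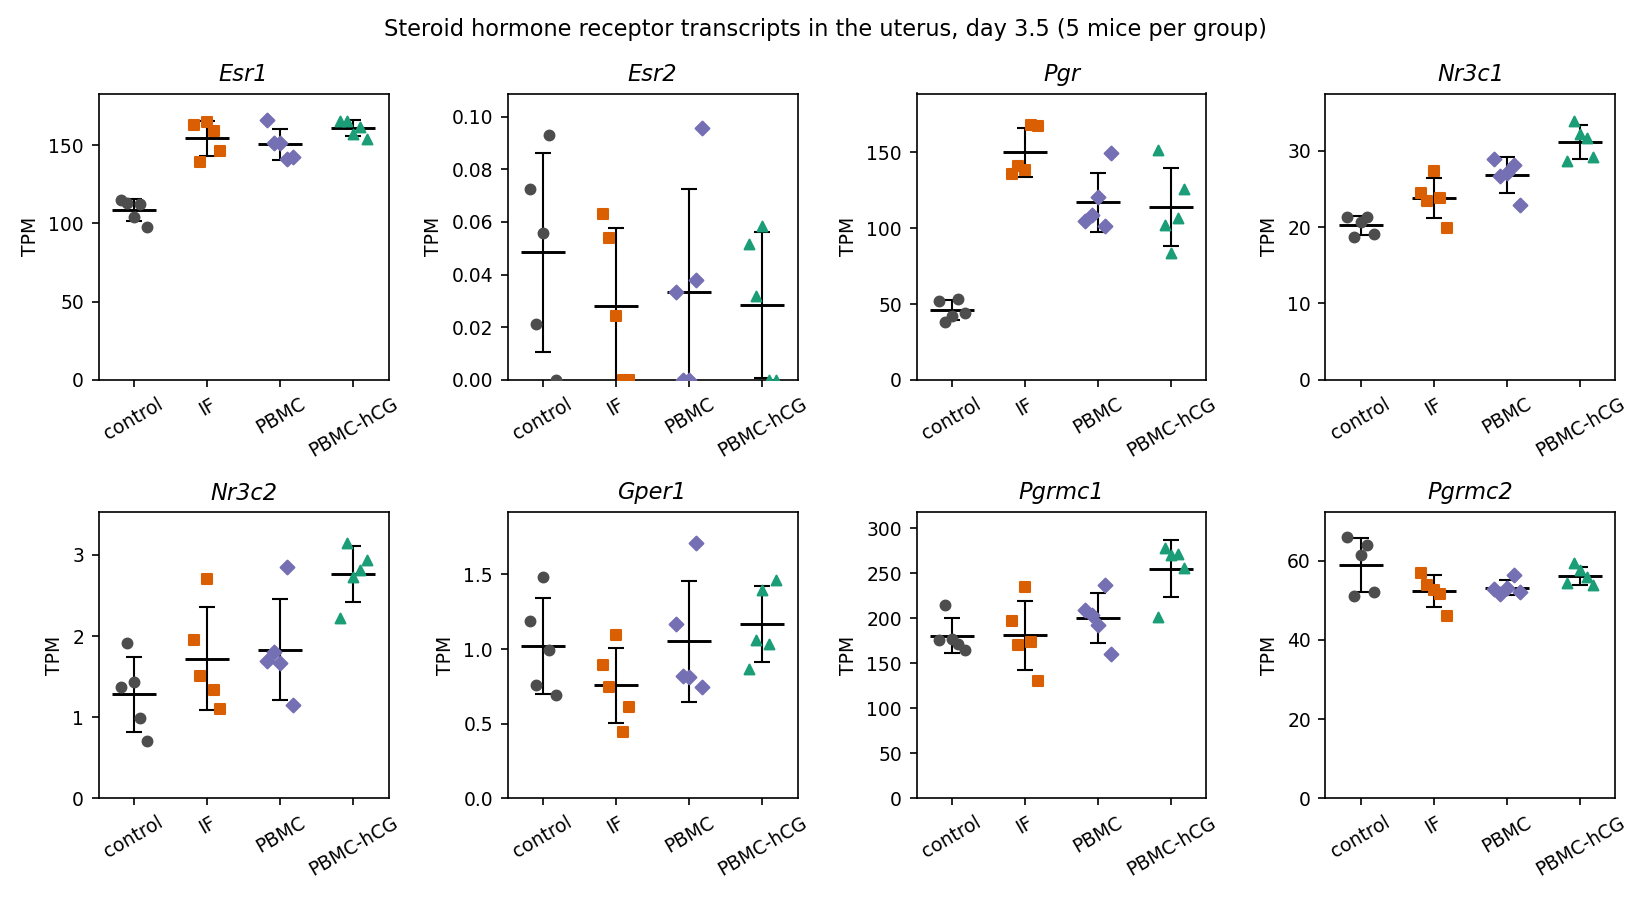
TPM of the 8 receptor genes in each of 20 mice, with 1 panel per gene, the 4 groups on the horizontal axis, a line at the mean and bars of 1 SD (n = 5). Esr1 and Pgr of all RU486-treated mice lie above all control mice, Nr3c1 of the PBMC-hCG group lies above all IF mice, and Esr2 stays under 0.1 TPM.

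Esr1 encodes the main estrogen receptor of the uterus (NCBI gene 13982, chromosome 10, 4611989 to 5005633, GRCm38). Its values in the 5 control mice were 115, 113, 104, 112 and 98.0 TPM. IF mice had 163, 139, 165, 159 and 146 TPM. PBMC mice had 166, 152, 151, 141 and 143 TPM, and PBMC-hCG mice 166, 165, 157, 162 and 154 TPM. Each RU486-treated mouse was thus above each control mouse, and the 3 treated groups overlapped. Mean Esr1 was 108 ± 7.06 TPM in control, 154 ± 11.3 in IF, 151 ± 9.88 in PBMC and 161 ± 5.13 TPM in PBMC-hCG mice (SD, n = 5 each). It was upregulated in the IF group against control, with a log2 fold change of 0.51 (SE 0.06, limma adjusted p = 5.98e-06), a 1.42-fold rise. Against control it was also higher in the PBMC group by 0.47 (adjusted p = 1.62e-05) and in the PBMC-hCG group by 0.57 (adjusted p = 2.12e-06) on the log2 scale. Among RU486-treated groups the log2 difference was -0.036 for PBMC against IF (adjusted p = 0.921), 0.061 for PBMC-hCG against IF (adjusted p = 0.475) and 0.096 for PBMC-hCG against PBMC (adjusted p = 0.381).

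Pgr encodes the nuclear progesterone receptor, a direct target of RU486 (NCBI gene 18667, chromosome 9, 8898900 to 8968611). Control mice had 52.1, 38.0, 42.3, 53.1 and 44.1 TPM. The IF mice had 136, 141, 138, 168 and 167 TPM. In the PBMC group the values were 105, 108, 121, 102 and 150 TPM, and in the PBMC-hCG group 151, 102, 83.8, 107 and 126 TPM. All treated mice exceeded all control mice, while the PBMC and PBMC-hCG groups each overlapped with IF through their highest mouse. Group means were 45.9 ± 6.49 TPM in control, 150 ± 16.2 in IF, 117 ± 19.5 in PBMC and 114 ± 25.7 TPM in PBMC-hCG mice (SD, n = 5 each). The IF rise was 3.27-fold, with a log2 fold change of 1.71 (SE 0.14, limma adjusted p = 1.44e-07), which ranked 25 by p-value among 18706 tested genes. Compared with control, Pgr was 2.54-fold higher in the PBMC group (log2 1.34, adjusted p = 2.56e-06) and 2.45-fold higher in the PBMC-hCG group (log2 1.29, adjusted p = 3.53e-06). Below the IF level, the log2 difference was -0.37 in the PBMC group (SE 0.14, limma adjusted p = 0.701) and -0.42 in the PBMC-hCG group (adjusted p = 0.0514), so neither passed adjustment. The latter passed in 5 of 20 alternatives, among them without IF replicate 3 and without PBMC-hCG replicate 1. PBMC-hCG and PBMC differed by -0.053 (adjusted p = 0.856).

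Because both transcripts are measured in the same library, the ratio of Esr1 to Pgr TPM does not depend on the scaling between libraries. The ratio was 2.40 ± 0.348 in control, 1.04 ± 0.149 in IF, 1.32 ± 0.233 in PBMC and 1.47 ± 0.314 in PBMC-hCG mice (SD, n = 5 each). Control mice lay between 2.11 and 2.97, above all others, since the highest value elsewhere was 1.88. The log2 ratio was lower in IF than in control by 1.20 (difference -1.20, two-sided exact permutation test, p = 0.00794, the smallest that 5 against 5 mice allow, adjusted over 6 comparisons 0.0159). PBMC and PBMC-hCG mice differed from control by -0.87 and -0.72 (exact permutation, adjusted p = 0.0159 for each). Within the RU486-treated mice, the log2 ratio was higher by 0.48 in PBMC-hCG than in IF (exact permutation p = 0.0317, adjusted p = 0.0476). It was 0.33 higher in PBMC than in IF (exact permutation p = 0.0556, adjusted p = 0.0667) and 0.15 higher in PBMC-hCG than in PBMC (exact permutation p = 0.437), and neither passed. The PBMC-hCG difference from IF lost its call without any of IF replicates 2, 4 and 5 (0.46, 0.45 and 0.42, exact permutation adjusted p = 0.0952 each) and without PBMC-hCG replicates 2, 3 and 4 (0.44, 0.38 and 0.46, adjusted p = 0.0667, 0.0762 and 0.0667). The PBMC difference from IF gained it without PBMC replicate 5 (0.44, exact permutation adjusted p = 0.0357).

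**Figure D2:**
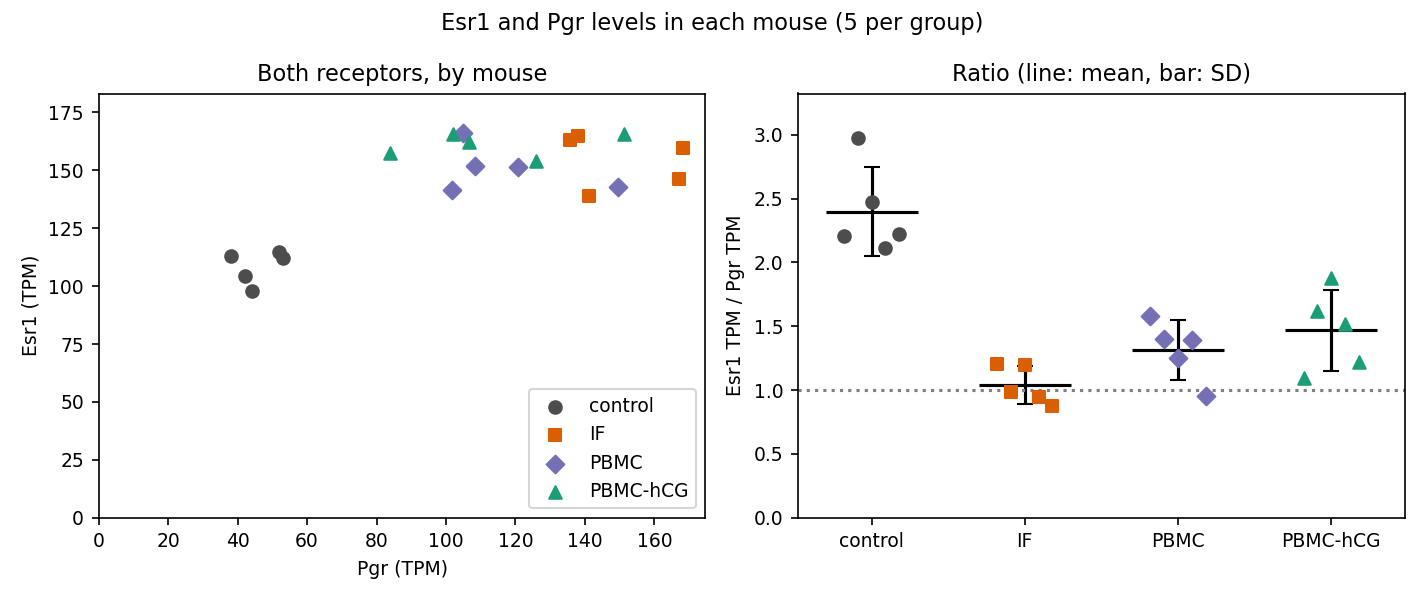
Left, TPM of Esr1 (vertical) against Pgr (horizontal) in each mouse, and right, the ratio of both per mouse with the mean as a line and 1 SD as a bar (n = 5 per group, dotted line at 1). Control mice have a ratio of 2.11 to 2.97 and IF mice of 0.875 to 1.20.

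Nr3c1 encodes the glucocorticoid receptor, which RU486 also blocks (NCBI gene 14815, chromosome 18, 39410545 to 39519421). Values in control mice were 21.3, 18.7, 20.7, 21.4 and 19.1 TPM. Those of IF mice were 24.4, 23.4, 27.4, 23.8 and 19.9 TPM. PBMC mice had 28.9, 26.7, 27.1, 28.2 and 22.8 TPM, and PBMC-hCG mice 28.6, 33.9, 32.2, 31.6 and 29.2 TPM. The IF range overlapped with control only through IF replicate 5, PBMC-hCG did not overlap with IF, and PBMC overlapped with IF and with PBMC-hCG. Means were 20.2 ± 1.22, 23.8 ± 2.67, 26.7 ± 2.36 and 31.1 ± 2.20 TPM (SD, n = 5 each) in control, IF, PBMC and PBMC-hCG. The receptor was upregulated in the PBMC-hCG group compared with IF, with a log2 fold change of 0.39 (SE 0.08, limma adjusted p = 0.0258), a 1.31-fold difference. Against control it was higher by 0.62 in the PBMC-hCG group (adjusted p = 2.71e-05) and by 0.40 in the PBMC group (adjusted p = 0.00179) on the log2 scale. The IF difference from control was 0.23 (adjusted p = 0.0514), and it passed without IF replicate 5 (0.29, adjusted p = 0.0129). PBMC against IF gave 0.17 (adjusted p = 0.731), and PBMC-hCG against PBMC gave 0.22 (adjusted p = 0.281).

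The call of Nr3c1 between PBMC-hCG and IF held in 12 of 20 alternatives. It was lost without IF replicate 2, 4 or 5 (adjusted p = 0.0576, 0.0582 and 0.0919) and without PBMC-hCG replicate 2, 3, 4 or 5 (adjusted p = 0.0804, 0.0827, 0.0609 and 0.0534), with log2 fold changes of 0.33 to 0.41 in these fits. Without both libraries high in adipose markers, an alternative chosen after seeing the data, it was 0.33 (limma adjusted p = 0.0662).

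The study reported a strong correlation of Nr3c1 with Msx1, a homeobox gene of uterine receptivity, and with Oxtr, the oxytocin receptor. It used the 15 RU486-treated mice. Both pairs were taken from that report and the same mice, so the p-values below repeat it and add no separate evidence. Permutation moved mice freely across the treated groups. Msx1 was at 78.2, 56.7, 66.7 and 80.6 TPM and Oxtr at 9.83, 149, 73.8 and 38.4 TPM on average in control, IF, PBMC and PBMC-hCG. Mice with more Nr3c1 had more Msx1 (log2 values, Pearson r = 0.909, permutation p = 1e-05, Spearman rho = 0.900, permutation p = 3e-05) and less Oxtr (r = -0.930, p = 1e-05, rho = -0.900, p = 1e-05, the smallest that 100000 permutations can give). After Benjamini-Hochberg adjustment over both relations, the p-values were at most 3e-05. The relations remained with group means removed, at 0.786 (permutation p = 0.00044) and -0.846 (p = 0.00014). Without IF replicate 5 and PBMC-hCG replicate 2, the mice farthest from the median of Nr3c1, r was 0.863 and -0.898. Control mice did not lie on the Oxtr line, with at most 19.6 TPM of Oxtr. For Msx1, control replicate 5 (Nr3c1 19.1 TPM, Msx1 40.5 TPM) lay near IF replicate 5 (19.9 and 44.7 TPM). The other control mice had at least 70.1 TPM of Msx1 at similar Nr3c1 levels. Over all 20 mice r was 0.387 for Msx1 (permutation p = 0.0925) and 0.138 for Oxtr (permutation p = 0.559). These libraries share their groups and their normalization, and no batch label is given.

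**Figure D3:**
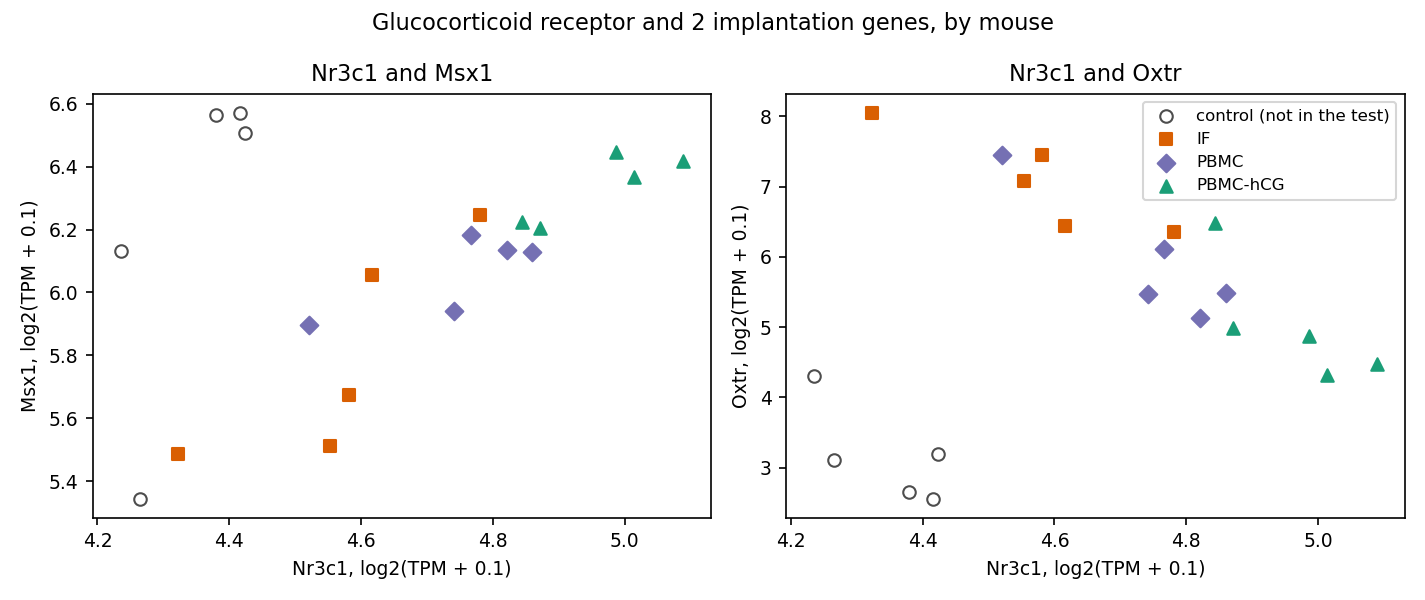
log2(TPM + 0.1) of Msx1 (left) and Oxtr (right) against that of Nr3c1, 1 point per mouse. Filled points are the 15 RU486-treated mice of the correlation (r = 0.909 and -0.930), and open circles are the 5 control mice, which were outside it.

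Nr3c2 encodes the mineralocorticoid receptor, which binds aldosterone and glucocorticoids (NCBI gene 110784, chromosome 8, 76898083 to 77245012), at a level under 4 TPM. Control mice had 1.37, 1.92, 1.43, 0.992 and 0.710 TPM. In IF mice it was at 1.95, 1.50, 2.71, 1.34 and 1.10 TPM. PBMC mice had 1.69, 1.81, 1.67, 2.85 and 1.15 TPM, and PBMC-hCG mice had 2.22, 3.15, 2.73, 2.81 and 2.94 TPM. The PBMC-hCG mice lay above all control mice but overlapped with IF and PBMC, each through 1 high mouse. With a mean of 2.77 ± 0.345 against 1.28 ± 0.460 TPM (SD, n = 5 each), Nr3c2 was 2.16-fold higher in PBMC-hCG than in control (log2 fold change 1.11, SE 0.26, limma adjusted p = 0.00327). The log2 difference of PBMC-hCG was 0.71 from IF (adjusted p = 0.0656) and 0.62 from PBMC (adjusted p = 0.289). In the IF and PBMC groups the means were 1.72 ± 0.633 and 1.83 ± 0.621 TPM, with log2 differences from control of 0.40 (adjusted p = 0.300) and 0.49 (adjusted p = 0.199).

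Pgrmc1 was the most abundant of the receptor transcripts (NCBI gene 53328, chromosome X, 36598193 to 36606079). Control mice had 176, 215, 177, 171 and 165 TPM. IF mice had 197, 170, 234, 173 and 130 TPM, the widest spread of the groups. PBMC mice had 209, 204, 193, 237 and 160 TPM, and PBMC-hCG mice had 201, 278, 270, 271 and 255 TPM. In the PBMC-hCG group 4 of 5 mice exceeded all other mice, and replicate 1 lay within the range of every other group. Means were 181 ± 19.6 TPM in control, 181 ± 38.4 in IF, 200 ± 27.7 in PBMC and 255 ± 31.4 TPM in PBMC-hCG mice (SD, n = 5 each). Pgrmc1 was higher in PBMC-hCG than in IF by a log2 fold change of 0.51 (SE 0.13, limma adjusted p = 0.0302) and than in control by 0.49 (adjusted p = 0.00853). The call against IF was lost without IF replicate 2, 4 or 5 (adjusted p = 0.0600, 0.0671 and 0.101), without PBMC-hCG replicate 2, 3, 4 or 5 (adjusted p = 0.0804, 0.0830, 0.0676 and 0.0569), and without both adipose-high libraries (0.40, adjusted p = 0.0677). The other log2 differences were -0.019 for IF against control (adjusted p = 0.942), 0.16 for PBMC against IF (adjusted p = 0.813), 0.35 for PBMC-hCG against PBMC (adjusted p = 0.283) and 0.14 for PBMC against control (adjusted p = 0.500).

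Pgrmc2, the second membrane-associated progesterone receptor component (NCBI gene 70804, chromosome 3, 41066326 to 41083046), varied little. It was at 51.1 to 66.0 TPM in control, 46.1 to 57.0 in IF, 51.6 to 56.4 in PBMC and 54.0 to 59.4 TPM in PBMC-hCG mice, so that all groups overlapped. Its log2 difference between IF and control was -0.17 (SE 0.07, limma adjusted p = 0.0937), which passed adjustment in 4 of 20 alternatives, among them without control replicate 2 or 5. In the other 5 comparisons the adjusted p-value was between 0.180 and 0.952.

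Gper1, the membrane estrogen receptor (NCBI gene 76854, chromosome 5, 139423150 to 139427800), was near 1 TPM in every group. Its means were 1.02 ± 0.321 TPM in control, 0.756 ± 0.248 in IF, 1.05 ± 0.405 in PBMC and 1.16 ± 0.254 TPM in PBMC-hCG mice (SD, n = 5 each). The groups overlapped in all 6 comparisons. The difference nearest to the threshold was 0.59 on the log2 scale between PBMC-hCG and IF (SE 0.25, limma adjusted p = 0.103).

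Esr2, the second nuclear estrogen receptor (NCBI gene 13983, chromosome 12, 76120419 to 76177259), was listed at 0 in 7 of 20 libraries and did not enter the fit. In control mice it was at 0.0724, 0.0212, 0.0558, 0.0929 and 0 TPM, and in IF mice at 0.0630, 0.0538, 0.0244, 0 and 0 TPM. PBMC mice had 0.0336, 0, 0, 0.0381 and 0.0957 TPM, and PBMC-hCG mice had 0.0517, 0.0318, 0.0584, 0 and 0 TPM. All groups held both zero and non-zero values and overlapped, and no fold change is given at this level. When genes at 0 in some libraries were kept, Esr2 was not called in any of the 6 comparisons (limma adjusted p = 0.607 to 1).

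The number of receptors called depended on the comparison. A call is an adjusted p-value under 0.05 in limma, and the second count follows the study's criterion of a fold change of at least 2 with a raw p-value under 0.05. Between IF and control, 2 of the 7 receptors tested were called (Esr1 and Pgr), where 21.9% of all tested genes were, and Pgr alone met the study's criterion, as did 4.03% of all genes. Between PBMC and control 3 were called (Esr1, Pgr and Nr3c1), against 19.5% of all genes, and 1 met the study's criterion (Pgr), against 3.34%. Between PBMC-hCG and control 5 were called (Esr1, Pgr, Nr3c1, Nr3c2 and Pgrmc1), against 31.8% of all genes, and 2 met the study's criterion (Pgr and Nr3c2), against 4.74%. All of these were higher than in control. These 3 comparisons share the control mice, and all 10 calls held in each alternative that was run, other than the study's criterion.

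Among the RU486-treated groups, 2 receptors (Nr3c1 and Pgrmc1) were called higher in PBMC-hCG than in IF, where 13.6% of all genes were called, and none met the study's criterion, met by 2.31% of all genes. None was called between PBMC and IF, where limma called 0% of all genes. There 2 receptors had a raw p-value under 0.05 (Pgr and Nr3c1), as did 1271 of the 18706 tested genes. None was called between PBMC-hCG and PBMC, where 0.0107% of all genes were. There 3 receptors had a raw p-value under 0.05 (Nr3c1, Nr3c2 and Pgrmc1), as did 3024 of the 18706 tested genes. The study's criterion was met by no receptor in these 2 comparisons and by 0.438% and 0.893% of all genes. The median log2 fold change of the 7 receptors was 0.23 in IF against control, 0.39 in PBMC-hCG against IF and 0.57 in PBMC-hCG against control, where the medians of all tested genes were 0.022, 0.049 and 0.076. The plot of fold changes shows every estimate with its error.

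**Figure D4:**
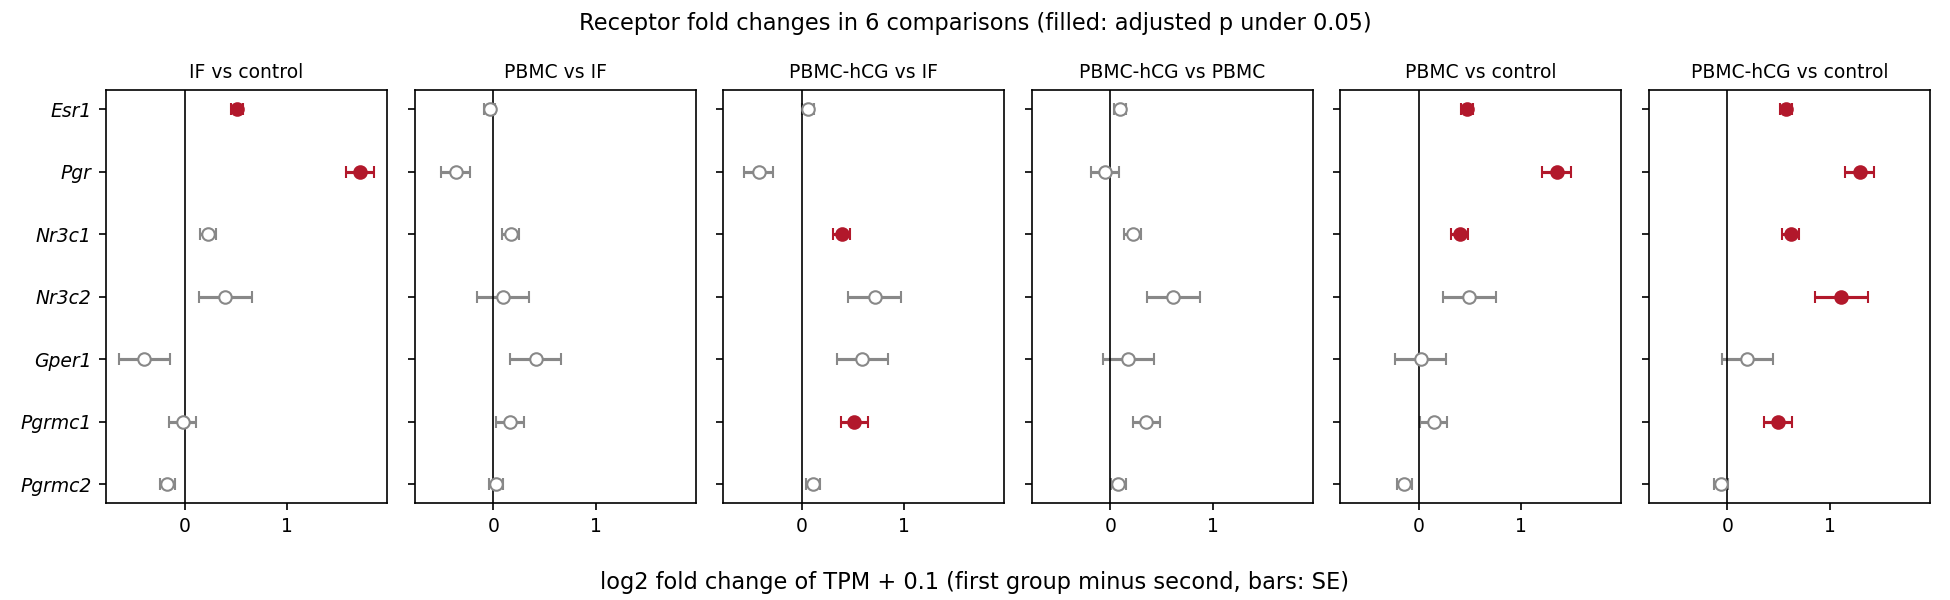
log2 fold change of TPM + 0.1 (horizontal) of 7 receptors in 6 comparisons, first group minus second, with bars of 1 SE. Filled points have a limma adjusted p-value under 0.05, and they are Esr1, Pgr, Nr3c1, Nr3c2 and Pgrmc1 in comparisons with control and Nr3c1 and Pgrmc1 in PBMC-hCG against IF.

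Markers of cell types moved in the same comparisons. Between IF and control, 6 of 7 epithelial and 5 of 5 endothelial markers were higher, where 21.9% of all tested genes were called in either direction, with summed levels of 955 to 1194 against 617 to 1114 TPM and of 473 to 510 against 316 to 425 TPM. In the same comparison 2 of 7 stromal markers were higher and 1 lower, 1 of 3 glandular and 1 of 7 myometrial markers were lower, 2 of 6 immune markers tested were higher, and 1 of 5 markers of ovary and oviduct was lower. Between PBMC-hCG and control, 5 of 7 myometrial markers were lower (31.8% of all genes called), with sums of 5026 to 6339 against 6190 to 11453 TPM, and no epithelial, endothelial or myometrial marker was at 0 in any library. Of the 7 immune markers 6 were tested. Between PBMC-hCG and IF, limma called 0 of them and 13.6% of all genes, with sums of 190 to 239 and 179 to 231 TPM. Against control, 3 of the 6 were higher in PBMC-hCG (Adgre1, Ptprc and Nkg7) and 0 lower, beside the same 31.8% of all genes. In RNA of a whole horn, fewer cells of a type and less RNA per cell cannot be told apart, and the part of these shifts in the receptor results was not tested.

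Across the 20 mice, the receptors fell into patterns that differed once group means were removed. These correlations of log2(TPM + 0.1) describe mice that share groups and normalization. Esr1 and Pgr correlated at 0.85 over all mice and at -0.026 within groups. Nr3c2 and Pgrmc1 correlated at 0.90 over all mice and 0.87 within groups, and Nr3c1 and Pgrmc1 at 0.80 and 0.75. Pgr and Pgrmc1 stood at 0.0075 over all mice and -0.72 within groups. The heat map of receptor levels shows Nr3c1, Nr3c2 and Pgrmc1 high in PBMC-hCG replicates 2, 3 and 4 and low in IF replicate 5 and PBMC replicate 5.

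**Figure D5:**
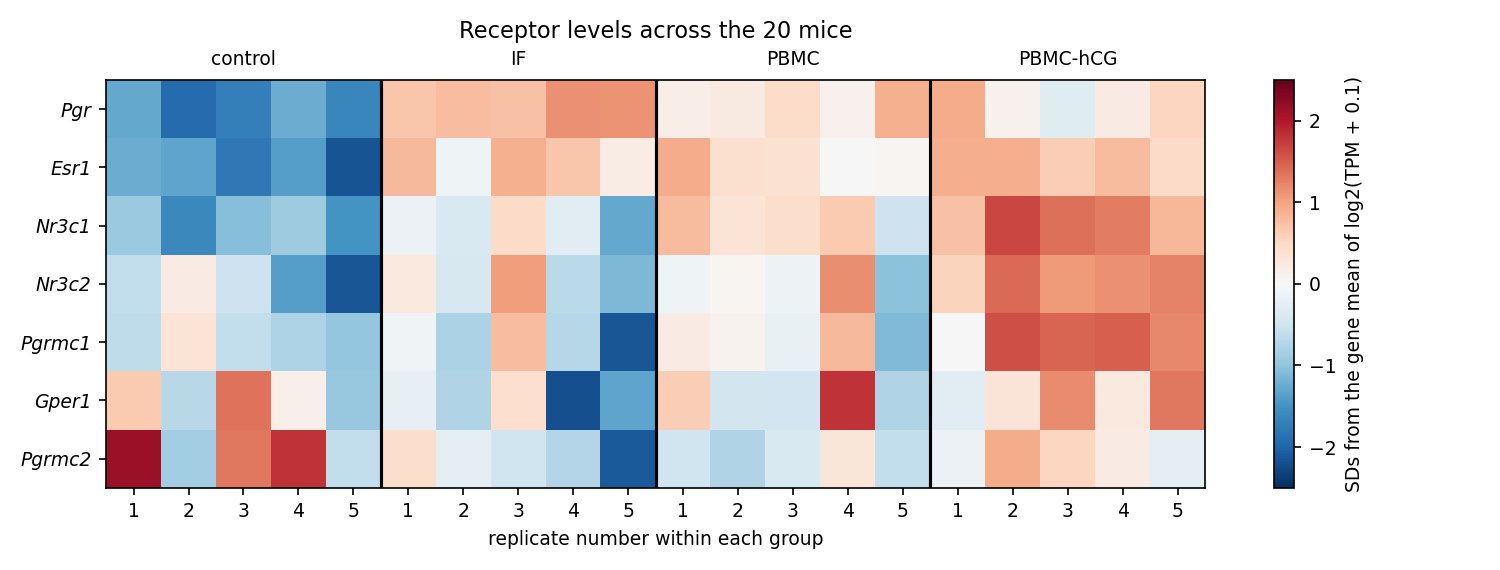
Level of 7 receptors (rows) in each of the 20 mice (columns, by group and replicate number), as SDs of log2(TPM + 0.1) from the mean of that gene over all mice, red above and blue below. Pgr and Esr1 are below their means in all 5 control mice, and Nr3c1, Nr3c2 and Pgrmc1 are low together in IF replicate 5.

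The genes most like each receptor were sought by Pearson r over the 20 mice among 15771 genes of at least 1 TPM. Closest to Esr1 were Nipbl (r = 0.966), Fgd6 (0.957) and Steap3 (0.952). For Pgr they included Dio2 (0.975) and Foxo1 (0.974). Nr3c1 lay nearest to Matn2 (0.978), Itpr2 (0.971) and Mtus1 (0.966), and Nr3c2 to Retreg2 (0.958), Samd9l (0.950) and Adra2a (0.948). Pgrmc1 was most like Marveld3 (0.977), Eif4b (0.975) and Cyp39a1 (0.963), and Pgrmc2 was most like Syn2 (0.902), Prorp (0.902) and Vit (0.895). With group means removed, r was 0.52 to 0.79 for the genes near Esr1, 0.78 to 0.79 for these genes near Pgr, 0.86 to 0.91 near Nr3c1 and 0.95 to 0.97 near Pgrmc1.

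Related genes were counted in the same fits. A list of 8 other steroid receptors and relatives of the PGRMC proteins held the membrane progestin receptors of the Paqr family, Nenf and Cyb5d2, among others. None of the 8 was called between IF and control. Of 5 orphan receptors tested, 1 was called there (Esrra, log2 -0.32, limma adjusted p = 0.0164), a share near the 21.9% of all tested genes. Between PBMC-hCG and IF, 13.6% of all tested genes were called. There Cyb5d2, a PGRMC relative and 1 of the 8 listed genes, rose by 0.65 (limma adjusted p = 0.0302). The orphan receptors Nr2f2 and Nr2f6 changed by 0.47 (adjusted p = 0.0407) and -0.22 (adjusted p = 0.0307).

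Among 10 chaperones and partner proteins of steroid receptors, 2 fell in IF against control and none rose, a share near the 21.9% of all tested genes called there. Fkbp5, an immunophilin induced by glucocorticoid, fell from 42.7 ± 6.53 to 12.2 ± 2.41 TPM (SD, n = 5 each, log2 -1.81, limma adjusted p = 1.34e-07), and Ppp5c fell by 0.22 on the log2 scale (adjusted p = 0.0232). Ppid was called lower in PBMC-hCG than in IF (log2 -0.38, adjusted p = 0.0473), and 7 of 10 chaperones were lower in PBMC-hCG than in control, where 31.8% of all genes were called. Of 11 coregulators, 4 rose in IF against control and none fell (21.9% of all genes called), among them the coactivators Ncoa3 (log2 0.36, adjusted p = 0.00386) and Crebbp (0.33, adjusted p = 0.00881). Pelp1 fell in PBMC-hCG against IF (log2 -0.27, adjusted p = 0.0464). Of 12 genes for steroid supply and breakdown 7 were tested. Hsd17b11 (log2 0.81, adjusted p = 0.00328) and H6pd (0.44, adjusted p = 0.0234) rose in IF against control, and Hsd17b7, an enzyme of estradiol and cholesterol synthesis, fell in PBMC-hCG against IF by 1.02 (adjusted p = 0.0343). The aromatase gene Cyp19a1 and the estrogen sulfotransferase gene Sult1e1 were listed at 0 in all 20 libraries.

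Known targets of the receptors moved in both directions, and their lists were drawn up with earlier results of these data known. Of 12 estrogen receptor targets, 6 rose and 1 fell in IF against control (21.9% of all genes called), with a median log2 fold change of 0.98 (0.022 over all genes), and 1 rose and 5 fell in PBMC-hCG against IF, with a median of -0.60 (0.049 over all genes, 13.6% called). Inhbb, an activin subunit gene, went from 16.5 ± 10.3 TPM in control to 564 ± 193 in IF and 167 ± 136 TPM in PBMC-hCG mice (SD, n = 5 each), with log2 changes of 5.24 (limma adjusted p = 8.85e-07) and -2.03 (adjusted p = 0.0287). Ramp3 (log2 3.20 in IF against control and -1.39 in PBMC-hCG against IF, adjusted p = 2.08e-05 and 0.0385) and Padi1 (2.60 and -1.43, adjusted p = 3.15e-05 and 0.0287) moved likewise. Igf1, a growth factor gene, fell in IF against control by 1.89 on the log2 scale (adjusted p = 2.33e-07).

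Of 12 progesterone receptor targets tested, 2 fell and none rose in IF against control, with a median of -0.13, while 21.9% of all tested genes were called: the activin antagonist Fst by 1.43 (adjusted p = 0.0101) and the homeobox gene Hoxa10 by 0.92 (adjusted p = 8.34e-05) on the log2 scale. In PBMC-hCG against IF, Hoxa10 rose by 0.42 (adjusted p = 0.0471) and Fst fell further, by 1.39 (adjusted p = 0.0324). Of 12 glucocorticoid receptor targets, 8 fell and 2 rose in IF against control, with a median of -0.88 and beside the same 21.9% of all genes. RU486 blocks the progesterone and glucocorticoid receptors, which recognise the same DNA element, so these lists cannot tell the 2 receptors apart. Zbtb16, a zinc finger gene, lay at 31.6 to 46.3 TPM in control and 1.28 to 4.32 TPM in IF mice (log2 -3.95, adjusted p = 2.84e-09), beside Tsc22d3, which encodes GILZ (log2 -1.45, adjusted p = 0.000124), and the metallothionein gene Mt2 (-1.17, adjusted p = 0.000166). In PBMC-hCG against IF, 2 of these 12 targets rose, Zbtb16 by 0.85 (adjusted p = 0.0326) and Tsc22d3 by 0.77 (adjusted p = 0.0363), and 2 fell (Nfkbia and Sgk1). The median of the 12 was 0.045 there, near the 0.049 of all tested genes, of which 13.6% were called. Of 5 mineralocorticoid receptor targets tested, 1 rose and 1 fell in IF against control, beside the same 21.9% of all genes. The target that fell was the sodium pump subunit gene Atp1b1 (log2 -0.36, adjusted p = 0.0269). In PBMC-hCG against IF the sodium channel genes Scnn1b and Scnn1a rose (log2 1.12, adjusted p = 0.0313, and 0.54, adjusted p = 0.0484). Of the same targets 1 fell, beside 13.6% of all tested genes called in either direction. The calls of PBMC-hCG against IF above share the dependence on single mice: over all genes, 2544 were called with all mice, and 0 to 34 without any 1 of the 7 mice named for Nr3c1.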

How the data were processed

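The uterine RNA of 20 mice was sequenced from stranded mRNA libraries, and the groups and replicate numbers were taken from the sample labels. The authors trimmed the reads with Trimmomatic, mapped them to mm10 with HISAT2 and assembled transcripts with StringTie (versions not given in the sources used here), and the values they deposited are TPM per gene. The authors tested counts with edgeR's exact test, which needs counts, so TPM were tested here with limma. The receptors, gene lists and tests were chosen with earlier results of these data known.

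log2(TPM + 0.1) of the 18706 genes above 0 TPM in all 20 libraries was fitted over the 4 groups with limma 3.58.1 (variance trend) in R 4.3.3, with Benjamini-Hochberg adjustment over all tested genes of a comparison. The pseudocount of 0.1 understates changes of low genes such as Gper1 and Nr3c2. Fold changes are on this scale. The fit was tested on simulated data. For ratios, exact permutation tests were used (two-sided, 252 arrangements) and for correlations 100000 permutations in scipy 1.17.1. The limma p-values set group differences against the spread between mice, shared by the 4 groups. Permutation p-values set a ratio difference or a correlation against rearrangements of the mice. Alternatives were pseudocounts of 1 and 0.01, other filters and scalings, other fits, and each mouse left out. Named genes were the receptors, the 3 genes most like each, Msx1, Oxtr, and up to 4 genes per list called in IF against control or PBMC-hCG against IF, by fold change. Nfkbia, Sgk1, Cyp19a1 and Sult1e1 lie outside that rule and were chosen after their values were seen, and some genes within it are not reported here. Positions and promoters are from RefSeq on GRCm38.p6, which matched 8 and 7 receptors. Serum hormones, PCR and histology were not analysed here.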

Additional observations from a re-analysis of the deposited data

Results flagged for a closer look

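Both flagged values are of Pgrmc1, where 1 mouse lay far from the other 4 of its group. Control replicate 2 was at 215 TPM, and on log2(TPM + 0.1), the scale examined, its gap to the next mouse was 0.728 of the group's range (0.753 on TPM). PBMC-hCG replicate 1 was at 201 TPM, below the other mice of its group, with a gap of 0.736 of the range on the log2 scale and 0.703 on TPM, the latter under the critical value. The critical value of Dixon's test for 5 mice is 0.710. In all, 44 groups of 5 values were examined and 2 were flagged, where chance flags about 1 in 20. Control replicate 2 was also the library with the highest sum of adipose markers, 582 TPM, and the part of this in its Pgrmc1 value was not tested.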

How the results depend on the processing

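The calls against control of Esr1, Pgr, Nr3c1, Nr3c2 and Pgrmc1 held in 20 of 20 alternatives each. Median-ratio scaling called 4 receptors in IF against control in place of 2, beside 4206 of the 18706 tested genes in place of 4104. The study's criterion gave 1 receptor in IF and in PBMC and 2 in PBMC-hCG against control, and 0 in PBMC-hCG against IF. In PBMC-hCG against IF, 0 to 5 receptors were called with 1 mouse left out. The most were called without IF replicate 3, where 5061 of the 18706 tested genes were called. Without PBMC-hCG replicate 1, 4 receptors and 4166 of all genes were called. Without both adipose-high libraries, an alternative chosen after seeing the data, 0 receptors were called, beside 3 of all genes in place of 2544. Without the filter 812 of all genes were called, where more genes were tested. Median-ratio scaling gave 1181 genes higher and 1467 lower in place of 1423 and 1121.

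Replicate numbers are shared between groups, but no source says that they pair mice: of 30 same-numbered pairs 8 correlated above 0.1 (-0.247 to 0.457), and a mouse correlated best with its own number in 12 of 60 cases. With the replicate block, 3 receptors were called in IF against control, with Nr3c1 (limma adjusted p = 0.0240), and 3 in PBMC-hCG against IF, with Pgr lower (adjusted p = 0.0386). Of the 18706 tested genes, 4153 and 3215 were called in these fits. Under the replicate block the smallest p-value of the log2 Esr1/Pgr ratio is 0.0625, so its differences of -1.20, 0.48, -0.87 and -0.72 could not pass. With a mouse left out, the ratio's difference between PBMC-hCG and IF was 0.38 to 0.58 and that between PBMC and IF 0.26 to 0.44. Over all 4 groups r was 0.387 for Nr3c1 with Msx1 and 0.138 with Oxtr, the latter of opposite sign.

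Among fold changes, signs turned only in differences that were not called. With a mouse left out, PBMC-hCG against PBMC was -0.16 to 0.050 for Pgr, PBMC against IF -0.070 to 0.27 for Nr3c2 and -0.016 to 0.061 for Pgrmc2, PBMC against control -0.16 to 0.16 for Gper1, and IF against control -0.12 to 0.094 for Pgrmc1. Gper1 was -0.027 by quantile normalization, -0.024 by median-ratio scaling and -0.064 without the adipose-high libraries, where Nr3c2 was -0.037, Pgrmc1 0.16 and Pgrmc2 -0.016. The causes were not tested. Depth is unknown, so nothing is said of Esr2 below 0.1 TPM.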
